A study of Mus musculus with 6 samples.

Results

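The chemokine ligand genes Ccl2, Ccl3, Ccl4, Ccl5, Ccl6, Ccl7, Ccl9, Cxcl2, Cxcl10 and Cxcl16 were examined, chosen by gene name, 10 of 54532 genes in the count table. RNA came from RAW264.7, an established mouse macrophage-like line from a virus-induced tumour, and each library was sequenced in bulk. Libraries labelled ERMAP shRNA are 3 with the genotype label ERMAP Knockdown and the treatment label shRNA. RAW libraries are 3 with the genotype label WT and no treatment label, against which the others were compared. The treatment text of all 6 samples, RAW included, names a lentivirus carrying the ERMAP shRNA, so the labels leave unclear whether RAW cells were transduced. No label describes a non-targeting shRNA, and none says whether replicates were separate cultures. The p-values therefore reflect the spread among 6 libraries alone, and this may be technical. The series' design text asks which genes differ after ERMAP is knocked down.

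Chemokines are small secreted proteins that steer migrating leukocytes along concentration gradients through receptors coupled to G proteins. They are grouped by their first cysteines, which lie side by side in the Ccl proteins and are separated by a single residue in the Cxcl proteins. Macrophages are a main source of them. Some are secreted by resting macrophages, while others are switched on by microbial products through NF-kB or by interferons through IRF and STAT factors.

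Summed counts ranged from 13447021 to 16602734 per library, and the low-count filter left 12491 genes for testing. For Ermap 10, 21 and 14 counts were found in libraries labelled ERMAP shRNA, against 12, 12 and 3 in RAW libraries, a log2 fold change of 0.81 (SE 0.52, edgeR adjusted p = 0.929), so it was not lower in the libraries that carry the knockdown label. RAW replicate 1 stood apart: mitochondrial genes took 3.69% of its counts, against 1.71% to 2.18% in the other 5 libraries. Its deviation from the RAW mean fell as transcript GC content rose (Spearman rho = -0.73 over genes, which are not independent replicates). Values without it are therefore given beside the test of each chemokine ligand gene of the 10 that passed the filter, and for Ermap the log2 fold change without it was 1.12 (SE 0.56, edgeR adjusted p = 0.332). The macrophage markers Lyz2, Csf1r and Cd68 averaged 2530, 448 and 401 FPKM in libraries labelled ERMAP shRNA and 2780, 406 and 394 FPKM in RAW libraries (means of 3), while Mrc1, the mannose receptor, had 20 counts against 9. Of 8 listed macrophage markers 7 were tested, and edgeR called 1 higher and 0 lower, where 1.01% and 0.136% of all tested genes were called. The gene called higher was Fcgr1, an IgG receptor (log2 fold change 1.64, SE 0.10, edgeR adjusted p = 0.000116). The unadjusted edgeR p was under 0.05 for 1 marker with higher and 1 with lower values, against 3.71% and 3.04% of all tested genes. Of 13 markers of T cells, B cells, neutrophils, fibroblasts and epithelium, 9 had 0 counts in every library, among them Cd3e, Ms4a1, Ly6g and Epcam. Mrc1 and these 4 were named after their values were seen. The 13 summed to 0.448 to 0.466 CPM in libraries labelled ERMAP shRNA and 0.277 to 0.542 CPM in RAW libraries. In bulk RNA, fewer cells making a transcript and less of it per cell cannot be told apart.

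RefSeq promoters (build GRCm38.p6) were available for 5 of the 10 genes: Cxcl2, Cxcl10, Ccl9, Ccl6 and Ccl3. The 250 bases before the RefSeq start are shown for 4 of them, because Cxcl10 and Cxcl2 had the higher values in libraries labelled ERMAP shRNA, Ccl9 the lower, and Ccl3 differed least. Capitals mark matches on either strand to an AP-1 site (TGANTCA) or a TATA box (TATAAA).
Cxcl10, chr5:92348890-92349139, minus strand: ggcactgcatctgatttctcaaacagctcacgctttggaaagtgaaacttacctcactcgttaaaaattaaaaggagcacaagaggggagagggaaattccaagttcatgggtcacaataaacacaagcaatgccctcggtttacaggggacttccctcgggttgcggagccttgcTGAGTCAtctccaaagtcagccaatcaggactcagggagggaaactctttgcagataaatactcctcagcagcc
Cxcl2, chr5:90903649-90903898, plus strand: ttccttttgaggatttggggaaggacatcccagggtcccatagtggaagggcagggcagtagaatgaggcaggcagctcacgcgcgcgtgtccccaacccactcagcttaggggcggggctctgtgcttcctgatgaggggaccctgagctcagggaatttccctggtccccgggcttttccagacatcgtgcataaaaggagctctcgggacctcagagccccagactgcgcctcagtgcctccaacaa
Ccl9, chr11:83578637-83578886, minus strand: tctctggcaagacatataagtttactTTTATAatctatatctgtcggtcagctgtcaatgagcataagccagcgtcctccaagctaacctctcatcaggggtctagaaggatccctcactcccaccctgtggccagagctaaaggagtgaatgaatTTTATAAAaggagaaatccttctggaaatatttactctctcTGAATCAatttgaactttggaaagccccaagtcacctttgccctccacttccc
Ccl3, chr11:83649379-83649628, minus strand: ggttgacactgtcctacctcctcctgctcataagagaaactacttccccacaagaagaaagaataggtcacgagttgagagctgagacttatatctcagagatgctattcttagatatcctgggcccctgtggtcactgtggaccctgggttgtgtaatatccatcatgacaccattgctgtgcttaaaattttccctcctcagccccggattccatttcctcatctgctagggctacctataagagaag

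The Cxcl10 window held 1 AP-1 match, its first base 74 bases upstream of the start. The Ccl9 window held 1 AP-1 match, beginning 53 bases upstream, and 3 TATA matches, of which 2 overlap. The windows of Cxcl2, Ccl3 and Ccl6 held 0 matches to these letters. Over the promoters of 27025 genes, the AP-1 site occurred in 6.87% and the TATA box in 13.0%. A match is a description of the letters and was not tested against the counts.

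In deposited FPKM, a level per listed gene length that allows a rough comparison of genes, Ccl3 and Ccl9 were the most abundant ligands in both groups. The listed length can exceed the longest coding transcript: 960 against 532 bases for Ccl5 and 2252 against 1353 for Cxcl10. For Ccl3 both are 766 bases. The order of the scarcer genes below may therefore differ with transcript length. In libraries labelled ERMAP shRNA the order was Ccl3 (99.1 ± 8.69 FPKM), Ccl9 (79.6 ± 2.1), Ccl4 (28.2 ± 4.71), Cxcl16 (16.6 ± 0.968), Ccl5 (1.9 ± 0.475), Cxcl10 (1.56 ± 0.117), Cxcl2 (0.907 ± 0.24), Ccl6 (0.206 ± 0.0363), Ccl2 (0.121 ± 0.0587) and Ccl7 (0 FPKM), as mean ± SD over 3 libraries. In RAW libraries it was Ccl9 (105 ± 15.6 FPKM), Ccl3 (96.1 ± 1.87), Ccl4 (18.6 ± 1.07), Cxcl16 (14.3 ± 0.847), Cxcl10 (0.551 ± 0.28), Ccl6 (0.524 ± 0.231), Cxcl2 (0.464 ± 0.0487), Ccl5 (0.348 ± 0.209), Ccl2 (0.0776 ± 0.0878) and Ccl7 (0 FPKM). Among neighbours in the order, Ccl5 and Cxcl10 overlapped over the libraries labelled ERMAP shRNA. In RAW libraries Ccl9 and Ccl3 overlapped, and so did each neighbouring pair from Cxcl10 down to Ccl2. The 10 genes made up 98.9% to 99.2% of the summed FPKM of all 40 listed chemokine ligand genes in libraries labelled ERMAP shRNA and 98.4% to 99.1% in RAW libraries. Ccl3 and Ccl9 together made up 76.1% to 78.8% in libraries labelled ERMAP shRNA and 82.7% to 85.7% in RAW libraries, 2 ranges that did not overlap. This share is made from the same FPKM values as the levels above and is not a separate result.

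Of the 10 genes, 9 had a count in some library and 7 passed the filter: Ccl3, Ccl4, Ccl5, Ccl9, Cxcl2, Cxcl10 and Cxcl16. With all 6 libraries edgeR called 0 of the 7 higher and 0 lower, where 1.01% of all tested genes were called higher and 0.136% lower. The unadjusted p of the same fit was under 0.05 for 4 with higher values (Ccl4, Ccl5, Cxcl2 and Cxcl10), against 3.71% of all tested genes, and for 1 with lower values (Ccl9), against 3.04%. DESeq2 called Ccl5 and Cxcl10 higher and 0 lower, where it called 1.62% of genes higher and 0.568% lower. In 6 of the 7 genes no CPM value of one group fell within the other, 5 with higher and 1 with lower values. Of all tested genes, 7.74% were apart in this way with higher and 6.47% with lower values, 14.2% together. The median log2 fold change of the 7 was 0.59, against -0.01 over all tested genes. The 10 genes were chosen with earlier results of these data known, so these shares are no test of the set.

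Without RAW replicate 1, edgeR called 4 of the 7. Ccl4, Ccl5 and Cxcl10 rose, where 2.67% of all genes tested then were called higher, and Ccl9 fell, where 2.19% were called lower. Leaving out any other single library gave 0 calls among the 7. The share of all tested genes called in those fits was not counted, so these 0 calls are not read as a result about the 7. The common dispersion, which is edgeR's measure of spread between libraries, was 0.0233 with all 6 libraries and 0.0045 without RAW replicate 1.

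**Figure D1:**
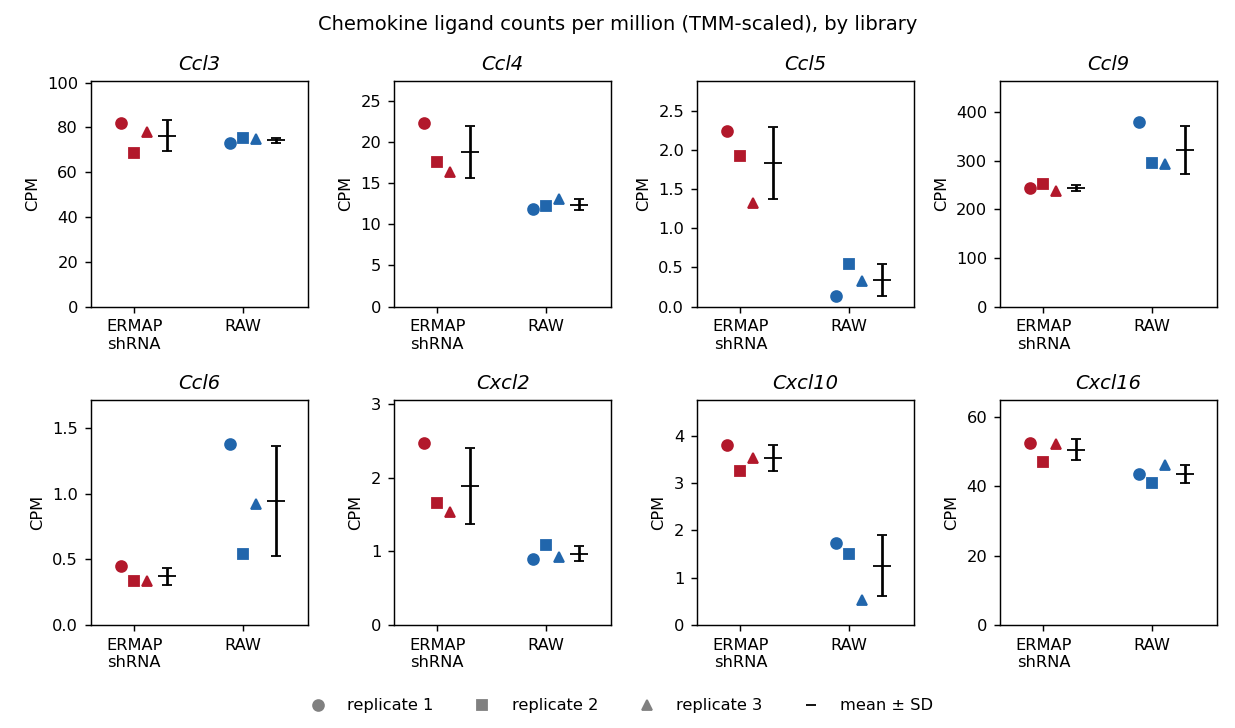
TMM-scaled CPM of 8 chemokine ligand genes in each of 3 libraries labelled ERMAP shRNA (red) and 3 RAW libraries (blue), on linear axes from 0. Black bars are mean ± SD. The groups overlap in Ccl3 and in none of the other 7 genes drawn.

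**Figure D2:**
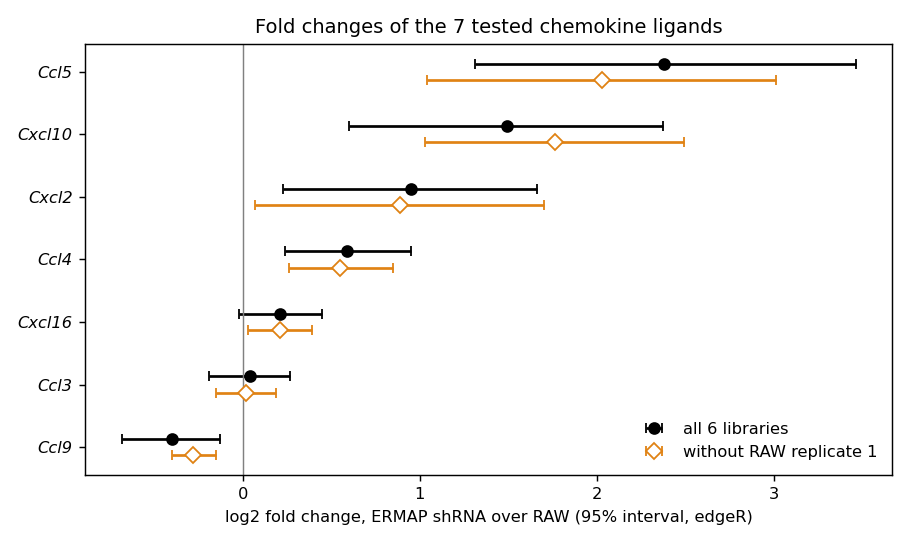
Log2 fold changes of the 7 tested genes, ERMAP shRNA over RAW, with 95% intervals from edgeR, from all 6 libraries (filled circles) and without RAW replicate 1 (open diamonds). Values run from -0.40 for Ccl9 to 2.38 for Ccl5 with all libraries.

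Ccl5 and Cxcl10 had the largest fold changes of the 10. Ccl5, a CC chemokine that draws T cells and monocytes, is the 3-exon gene ENSMUSG00000035042 on the minus strand of chromosome 11, 83525778 to 83530518 (mm10). Libraries labelled ERMAP shRNA held 30, 29 and 20 Ccl5 counts, against 2, 9 and 5 in RAW libraries, that is 2.24, 1.93 and 1.33 CPM against 0.138, 0.542 and 0.33 CPM. The lowest library labelled ERMAP shRNA lay above the highest RAW library. Ccl5 had a log2 fold change of 2.38, with SE 0.46 and a 95% interval of 1.31 to 3.46, and was not called (edgeR adjusted p = 0.0696). Without RAW replicate 1, which had 2 Ccl5 counts, the log2 fold change was 2.03 (SE 0.48) and Ccl5 rose (edgeR adjusted p = 0.0102). Its transcript has 52.8% GC, the highest of the 10, and RAW replicate 1 had 0.317 times the mean of the other RAW libraries. That value rests on 2 counts against 9 and 5, and whether base composition has a part in it was not tested.

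Cxcl10, an interferon-inducible ligand of CXCR3 on activated T and NK cells, is ENSMUSG00000034855, with 3 exons on the minus strand of chromosome 5, 92346638 to 92348889. Libraries labelled ERMAP shRNA held 51, 49 and 53 counts, against 25, 25 and 8 in RAW libraries, or 3.81, 3.26 and 3.53 CPM against 1.73, 1.51 and 0.528 CPM. The libraries labelled ERMAP shRNA lay close together and above all RAW libraries, of which replicate 3 was lowest. In edgeR this gave a log2 fold change of 1.49, with SE 0.38, a 95% interval of 0.60 to 2.37 and adjusted p = 0.22. Without RAW replicate 1 it was 1.76 (SE 0.35) and Cxcl10 rose (edgeR adjusted p = 0.00238), and without RAW replicate 3 it was 1.13 and was not called (edgeR adjusted p = 0.246). For Cxcl10, RAW replicate 1 had 1.70 times the mean of the other RAW libraries, a mean lowered by replicate 3 at 0.528 CPM. Replicates 1 and 2 were close, at 1.73 and 1.51 CPM. Leaving out RAW replicate 1 moved the fold change up, unlike for Ccl5.

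Ccl3 and Ccl4, macrophage inflammatory proteins that attract monocytes and T cells, lie beside each other on chromosome 11 and differed in their values. Ccl4 (ENSMUSG00000018930, plus strand, 83662584 to 83664683, 3 exons) had 299, 264 and 245 counts in libraries labelled ERMAP shRNA and 171, 203 and 199 counts in RAW libraries. In CPM these were 22.3, 17.6 and 16.3 against 11.8, 12.2 and 13.1. The groups did not overlap, and replicate 1 was the highest of the libraries labelled ERMAP shRNA. EdgeR put the log2 fold change at 0.59, with SE 0.15, a 95% interval of 0.24 to 0.95 and adjusted p = 0.228. Without RAW replicate 1 it was 0.55 (SE 0.14) and Ccl4 rose (edgeR adjusted p = 0.0194).

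Ccl3 (ENSMUSG00000000982, minus strand, 83647844 to 83649355, 3 exons) had 82.2, 68.8 and 78.1 CPM in libraries labelled ERMAP shRNA and 72.9, 75.2 and 74.7 CPM in RAW libraries. The groups overlapped: replicate 2 of the libraries labelled ERMAP shRNA was the lowest of all 6. The fitted log2 difference was 0.04, with SE 0.10, a 95% interval of -0.19 to 0.27 and edgeR adjusted p = 0.961. Leaving out RAW replicate 1 gave 0.02, with a 95% interval of -0.15 to 0.19 and edgeR adjusted p = 0.938. It had 1034 to 1248 counts per library, far above the filter.

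Ccl9 and Ccl6 are CC chemokines of rodents that act through CCR1, and both had lower values in libraries labelled ERMAP shRNA. Ccl9 (ENSMUSG00000019122, chromosome 11, minus strand, 83572919 to 83578636, 4 exons) had 3251, 3765 and 3578 counts in libraries labelled ERMAP shRNA and 5480, 4889 and 4442 counts in RAW libraries. These were 243, 251 and 238 CPM against 379, 294 and 293 CPM, with no overlap. With all libraries the log2 fold change was -0.40, with SE 0.12, a 95% interval of -0.68 to -0.13 and edgeR adjusted p = 0.334. RAW replicate 1 had 1.29 times the mean of the other RAW libraries, and Ccl9 has 42.1% GC, the lowest of the 10. Whether base composition has a part in that value was not tested. Without RAW replicate 1, Ccl9 fell by 0.28 on the log2 scale (SE 0.06, 95% interval -0.40 to -0.15, edgeR adjusted p = 0.00671), a smaller value with a narrower interval.

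Ccl6 (ENSMUSG00000018927, chromosome 11, minus strand, 83587882 to 83593087, 4 exons) had 6, 5 and 5 counts in libraries labelled ERMAP shRNA and 20, 9 and 14 counts in RAW libraries. The CPM of the groups were apart (0.333 to 0.448 against 0.542 to 1.38), but counts were too low for the filter. The ratio of summed counts, 16 against 43 and scaled by library totals, was 0.394 (95% exact binomial interval 0.207 to 0.714, counting error only). With no filter on low counts, edgeR gave a log2 fold change of -1.33 (SE 0.55, adjusted p = 0.763). RAW replicate 1 held the highest Ccl6 value, as it did for Ccl9. The noncoding gene E230016K23Rik overlaps Ccl6 on the other strand and had 2 counts over the 6 libraries.

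Cxcl2, a neutrophil attractant that acts through CXCR2, is ENSMUSG00000058427 on the plus strand of chromosome 5, 90903871 to 90905938, with 3 exons. It had 33, 25 and 23 counts in libraries labelled ERMAP shRNA and 13, 18 and 14 counts in RAW libraries, or 2.47, 1.66 and 1.53 CPM against 0.899, 1.08 and 0.924 CPM. The groups did not overlap, with replicate 1 the highest of the libraries labelled ERMAP shRNA. Cxcl2 had a log2 fold change of 0.95, with SE 0.31, a 95% interval of 0.23 to 1.66 and edgeR adjusted p = 0.432. Leaving out RAW replicate 1 gave 0.89 (SE 0.39), also not called (edgeR adjusted p = 0.251).

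Cxcl16, a membrane-bound ligand of CXCR6 that also takes up oxidised lipoprotein and is released by the protease ADAM10, is ENSMUSG00000018920 on the minus strand of chromosome 11, 70453983 to 70459984, with 5 exons. It had 52.3, 47 and 52.1 CPM in libraries labelled ERMAP shRNA and 43.5, 40.9 and 46 CPM in RAW libraries. The groups came within about 1 CPM of each other without overlapping. This was a log2 fold change of 0.21, with SE 0.10, a 95% interval of -0.02 to 0.45 and edgeR adjusted p = 0.804. Leaving out RAW replicate 1 gave 0.21 again, with SE 0.09 and edgeR adjusted p = 0.223.

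Ccl2 and Ccl7, monocyte attractants that act through CCR2, were at or near 0. Ccl2 (ENSMUSG00000035385, chromosome 11, plus strand, 82035571 to 82037453, 3 exons) had 2, 1 and 3 counts in libraries labelled ERMAP shRNA and 1, 0 and 3 counts in RAW libraries. Ccl7 (ENSMUSG00000035373, plus strand, 82045712 to 82047525, 3 exons) had 0 counts in every library. That count allows up to 0.0688 CPM over the 43583531 counts of the libraries labelled ERMAP shRNA and 0.065 CPM over the 46183897 counts of the RAW libraries. A difference in either gene was not detectable at this depth.

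The 10 genes fall into 2 groups on chromosome 11, a pair of Cxcl loci on chromosome 5, and Cxcl16 on its own. Ccl5, Ccl9, Ccl6, Ccl3 and Ccl4 lie in this order within 139 kb of chromosome 11, from 83525778 to 83664683, with 42.4, 9.25, 54.8 and 13.2 kb between neighbours. Only E230016K23Rik and Rpl9-ps1 are also listed there, with 2 and 1 counts over all libraries. Signs of the difference were mixed along this stretch: Ccl5 and Ccl4 at its ends had higher values in libraries labelled ERMAP shRNA, Ccl9 and Ccl6 lower values, and Ccl3 overlapped. Ccl2 and Ccl7 lie more than a megabase away with Ccl11, Ccl12, Ccl8 and Ccl1, each of which had 0 counts in every library. On chromosome 5, Cxcl2 lies 10.8 kb from Cxcl1, which had 0 counts. Cxcl10 lies between Cxcl9, 18.6 kb away and also at 0 counts, and Cxcl11, 10.7 kb away. Cxcl11, like Cxcl9 and Cxcl10 a CXCR3 ligand, had 1, 1 and 4 counts in libraries labelled ERMAP shRNA and 0 in each RAW library. With the RAW group set at its floor of 3 counts, this is 2.12-fold higher. That value takes the 6 counts as exact and is not a lower limit. In that trio Cxcl10 had all but these 6 counts.

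**Figure D3:**
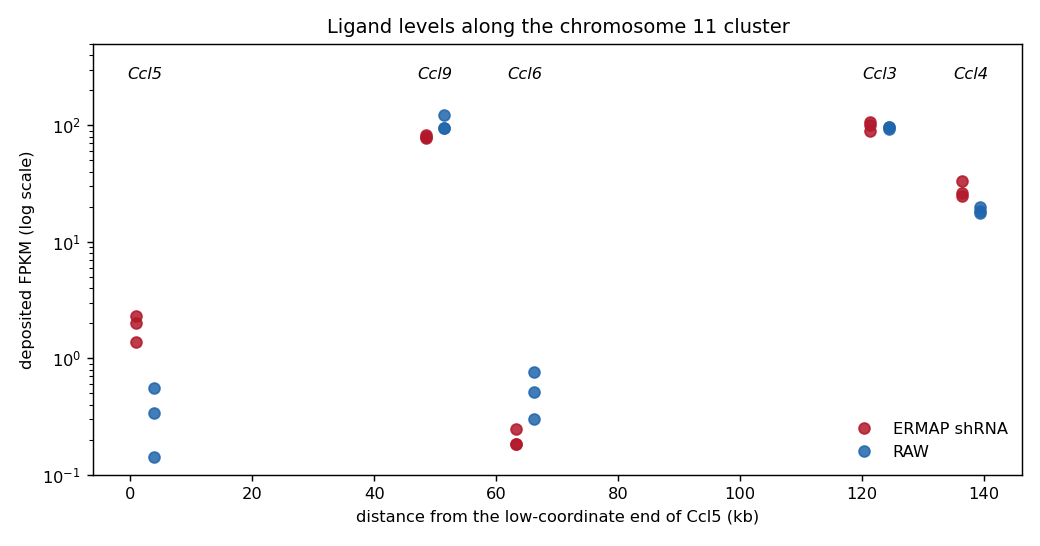
Deposited FPKM (log scale) of the 5 ligand genes of the chromosome 11 cluster in each library, against distance in kb from the low-coordinate end of Ccl5, with libraries labelled ERMAP shRNA in red, drawn left of RAW libraries in blue. Levels range from 0.142 FPKM for Ccl5 to 123 FPKM for Ccl9, both in RAW replicate 1, and red points lie above blue for Ccl5 and Ccl4 and below for Ccl9 and Ccl6.

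Ratios between genes of this cluster within a library do not depend on library scaling. The Ccl3/Ccl9 ratio of FPKM was 1.35, 1.09 and 1.30 in libraries labelled ERMAP shRNA and 0.765, 1.01 and 1.01 in RAW libraries. The Ccl4/Ccl9 ratio was 0.424, 0.324 and 0.316 against 0.144, 0.192 and 0.207. The Ccl4/Ccl3 ratio was 0.315, 0.296 and 0.242 against 0.188, 0.189 and 0.204. In all 3 ratios the groups did not overlap. The ratios share genes, so they are not separate results, and they restate the Ccl4 and Ccl9 differences above. How often ratios of other gene pairs lie apart was not computed. The mean log2 ratios differed by 0.43 for Ccl3/Ccl9, 0.98 for Ccl4/Ccl9 and 0.55 for Ccl4/Ccl3, and by 0.29, 0.82 and 0.53 without RAW replicate 1. An exact two-sided permutation test over libraries gave p = 0.1 for each, adjusted p = 0.1 over the 3 ratios, the smallest p that 3 against 3 libraries allow. The ratio of Ccl4 to Ccl3 barely moved with RAW replicate 1, while both ratios over Ccl9 did.

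**Figure D4:**
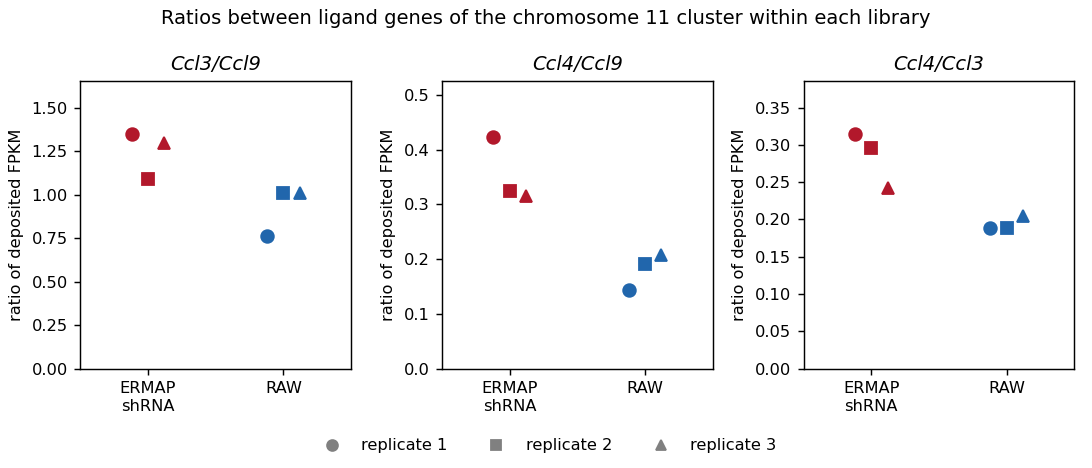
Ratios of deposited FPKM between ligand genes of the chromosome 11 cluster within each library, for 3 libraries labelled ERMAP shRNA (red) and 3 RAW libraries (blue), on linear axes from 0. Each red point lies above each blue point in all 3 panels. For Ccl3/Ccl9 the lowest red point is 1.09 and the highest blue points are 1.01.

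Most other chemokine ligands had 0 counts in these libraries. The 30 further ligand genes lie on 36 rows, and how reads matching several copies were counted was not given. For genes with copies, 0 counts therefore need not mean no transcript. Of the 30, 22 had 0 counts in every library and 2 passed the filter, Ccl25, a ligand of thymus and gut, and Cxcl14. Of these 2 edgeR and DESeq2 each called 0, and the unadjusted edgeR p was under 0.05 for 0. Ccl25 averaged 0.872 ± 0.122 FPKM in libraries labelled ERMAP shRNA and 1.01 ± 0.0614 FPKM in RAW libraries, a log2 fold change of -0.22 (SE 0.17). Cxcl14 had a log2 fold change of 0.01 (SE 0.44). Ccl17, a ligand of CCR4, had 10 and 21 counts over the libraries labelled ERMAP shRNA and RAW.

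Of 23 chemokine receptor genes, 6 passed the filter, and edgeR and DESeq2 each called 0, while an unadjusted edgeR p under 0.05 marked 1 as higher and 0 as lower. That 1 was Ccrl2, named after its values were seen, and 3.71% of all tested genes were higher at this p. Ccrl2 had 20, 15 and 23 counts in libraries labelled ERMAP shRNA and 2, 2 and 10 in RAW libraries, with no overlap in CPM (log2 fold change 2.11, SE 0.59, edgeR adjusted p = 0.282). Leaving out RAW replicate 1 gave 1.79 for Ccrl2 (SE 0.57, edgeR adjusted p = 0.0776). The median log2 fold change of the 6 was 0.09 with all libraries and -0.07 without RAW replicate 1, so its sign turned. Cx3cr1, the fractalkine receptor of monocytes and macrophages, was the most abundant at 108 ± 2.37 FPKM in libraries labelled ERMAP shRNA and 101 ± 5.43 FPKM in RAW libraries (edgeR adjusted p = 0.937). Cxcr3, the receptor of Cxcl10, had 4.23 ± 0.543 FPKM against 5.05 ± 0.369 FPKM (log2 fold change -0.26, SE 0.16, edgeR adjusted p = 0.924). Ccr10 had 2.26 ± 0.639 FPKM against 1.84 ± 1.11 FPKM (edgeR adjusted p = 0.951). Some receptors of the ligands were scarce: over the libraries labelled ERMAP shRNA and RAW, Ccr1, the receptor of Ccl6 and Ccl9, had 18 and 37 counts. Cxcr6, the Cxcl16 receptor, had 10 and 10, and Cxcr2, the Cxcl2 receptor, had 0 in every library. These 3 were chosen for the ligands they bind, after their values were seen.

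Genes that act on chemokine proteins or mRNAs included 2 that rose. Of 10 listed, 9 were tested, 2 were called higher and 0 lower, where 1.01% and 0.136% of all tested genes were called. The list was chosen with earlier results of these data known, so its share of calls is no test of the list. Sdc3, a heparan sulfate proteoglycan of a family that binds chemokines, had 127 ± 1.82 CPM in libraries labelled ERMAP shRNA and 18 ± 4.02 CPM in RAW libraries (log2 fold change 2.81, SE 0.17, edgeR adjusted p = 0.000104). Zfp36l1, which binds AU-rich mRNAs and promotes their decay, had 18.6 ± 2.42 CPM against 6.67 ± 2.2 CPM (log2 fold change 1.47, SE 0.25, edgeR adjusted p = 0.04). Zfp36l2, Sdc4 and Adam10, the most abundant of the list by FPKM, had log2 fold changes of 0.11, 0.13 and -0.03 and were not called. Of the 9, 2 were called higher and 1 lower without RAW replicate 1, against 2.67% and 2.19% of all genes tested then. The gene called lower was Sdc1, another such proteoglycan, named after its values were seen, whose log2 fold change was -0.45 (SE 0.10, edgeR adjusted p = 0.00933), against -0.29 with all libraries (SE 0.17, edgeR adjusted p = 0.914).

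Of 14 NF-kB, IRF and STAT genes that take part in switching chemokine genes on, 3 were called higher, against 1.01% of all tested genes, and 0 lower, with a median log2 fold change of 0.43. In the fit without RAW replicate 1, 5 were called higher and 0 lower, against 2.67% and 2.19% of all genes tested then, and the median was 0.26. They were Irf7, at 128 ± 8.51 CPM in libraries labelled ERMAP shRNA and 4.72 ± 2.23 CPM in RAW libraries, Irf9, at 70.8 ± 3.18 CPM against 17.5 ± 1.28 CPM, and Stat2, at 44.7 ± 1.86 CPM against 27.7 ± 2.23 CPM (edgeR adjusted p = 0.000195, 4.51e-05 and 0.0243). Irf5, Nfkbia and Rela, the most abundant by FPKM, had log2 fold changes of 0.08, 0.64 and 0.11 and were not called (edgeR adjusted p 0.0566 for Nfkbia). Nfkbia rose without RAW replicate 1, by 0.55 on the log2 scale (SE 0.08, edgeR adjusted p = 5.52e-05). This list was also chosen with earlier results of these data known, so its share of calls is no test of the list. Whether these genes have a part in the chemokine values was not tested.

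Settings other than edgeR with all 6 libraries called between 0 and 4 of the 7 genes. Fits that gave RAW replicate 1 a low weight or adjusted for GC content called the same 4 genes as the fit without that library. With library weights in limma-voom, Ccl4, Ccl5 and Cxcl10 rose and Ccl9 fell, where 3.75% of genes were called higher and 3.27% lower. EdgeR with GC offsets also called these 3 higher and Ccl9 lower, against 2.17% and 1.15% of genes, and did so again without RAW replicate 1, against 3.38% and 2.27%. Ccl5 was the only one of the 7 called with no filter on low counts (background 0.698% higher and 0.141% lower), in limma-trend on log2(FPKM + 1) (1.02% and 0.152%) and at an adjusted p under 0.1 (1.26% and 0.344%).

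**Figure D5:**
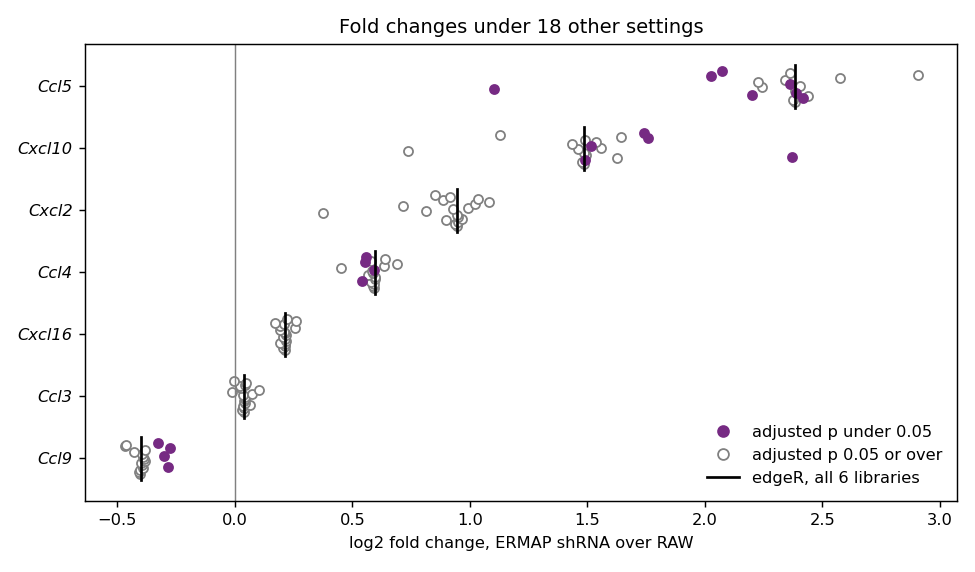
Log2 fold changes of the 7 tested genes, ERMAP shRNA over RAW, under each of 18 other settings, with purple points for an adjusted p under 0.05, open points otherwise and a black line for edgeR with all 6 libraries. Ccl5 was called under 7 settings, Cxcl10 under 5, Ccl4 and Ccl9 under 4 each, and Cxcl2, Cxcl16 and Ccl3 under 0.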

How the data were processed

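Bulk RNA of RAW264.7 cells was sequenced in 6 libraries, 3 labelled ERMAP shRNA and 3 labelled RAW. Per the submitters' processing notes, the aligner was HISAT2 and the build mm10. Counting program, strand setting and annotation release were not given in the sources used here. Whole-number counts of 54532 genes were deposited by the authors. The FPKM they deposited are those counts over gene length and a constant of each library, and a further table holds mean FPKM per group.

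Counts were tested with edgeR 4.0.16 (quasi-likelihood, TMM factors, filterByExpr at a minimum count of 10, robust dispersion) in R 4.3.3 over all genes, with Benjamini-Hochberg adjustment, and calls were made under an adjusted p of 0.05. CPM are TMM-scaled, and fold changes are log2 of ERMAP shRNA over RAW. The test was also run on simulated data, where its share of false calls was above the level set and most of the smallest changes were missed. Alternatives used DESeq2 1.42.0, limma 3.58.1, GC offsets from GENCODE vM21 transcripts, other scaling, filters and units, each library left out in turn, and a replicate block. Numbers in the column names name the libraries and were not tied to single samples. No pair of libraries in a group agreed within sampling noise (chi-square per degree of freedom at least 3.35). The 10 genes and all lists were chosen with earlier results of these data known. The text names these 10, Ermap, neighbouring chemokines, and of each list its called and 3 most abundant members. The list of markers of other cell types is an exception, as its most abundant members are not named. Genes named outside that rule are said to be. Some listed genes are not reported here by name. Intervals and floors from counts cover counting error only.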

Additional observations from a re-analysis of the deposited data

How the results depend on the processing

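Counts of called genes among the 10 depended on the setting. Against 0 higher, DESeq2 gave 2, library weights 3, GC offsets 3, GC offsets without RAW replicate 1 (added after the data were seen) 3, limma-trend on log2(FPKM + 1) 1, no count filter 1 and an adjusted p under 0.1 gave 1. Against 0 lower, library weights, GC offsets and GC offsets without RAW replicate 1 each gave 1, and leaving out 1 library gave 0 to 3 higher and 0 to 1 lower.

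For Ccl5 the log2 fold change was 2.42 with DESeq2 (adjusted p = 0.00318), 2.20 with library weights, 2.39 with no filter, 1.10 on log2(FPKM + 1), which shrinks low genes, 2.36 with GC offsets and 2.07 with GC offsets without RAW replicate 1, called in each. For Cxcl10 it was 1.49 with DESeq2, 2.37 with library weights, 1.52 with GC offsets and 1.74 with GC offsets without RAW replicate 1, called in each. For Ccl4 library weights gave 0.54, GC offsets 0.59 and GC offsets without RAW replicate 1 0.56, and for Ccl9 -0.29, -0.30 and -0.33, called in each. Library weights put 0.0903 on RAW replicate 1 and 3.26 on RAW replicate 3, which had the lowest Cxcl10 value. Leaving out 1 library gave 2.03 to 2.91 for Ccl5, 1.13 to 1.76 for Cxcl10, 0.45 to 0.69 for Ccl4, -0.47 to -0.28 for Ccl9 and -0.0134 to 0.10 for Ccl3. Ccl3 was also -0.0034 with GC offsets without RAW replicate 1. The cause was not tested. Direction held in all 18 settings for each tested gene except Ccl3. Other ligands and receptors had 0 calls throughout.

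With the replicate block, edgeR called 0 of the 7 genes, and Ccl5 had a log2 fold change of 2.40 (adjusted p = 0.212). The share of all tested genes called with the block was not counted. Deviations of same-numbered libraries correlated at -0.13, -0.278 and 0.178, and 2 of 6 libraries correlated best with their own number. With so few libraries these values cannot decide whether same-numbered libraries were paired. Ccl2, Ccl6 and Ccl7 were limited by depth.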
